A study of Mus musculus with 14 samples.

Results

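The 10 genes described here are Xbp1, the transcription factor of the IRE1 branch of the unfolded protein response, and 9 genes for proteins that fold, retain or clear proteins in the endoplasmic reticulum (ER): Hspa5, Hsp90b1, Pdia4, Pdia6, Dnajb9, Herpud1, Sdf2l1, Creld2 and Manf. They were chosen by name, through the gene identifiers of the count tables, and are 10 of 55487 features counted. All 10 had enough counts to be tested in every comparison.

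Proteins that are secreted or placed in membranes are folded in the ER, where the Hsp70-type chaperone BiP (Hspa5), the Hsp90-type chaperone Grp94 (Hsp90b1) and protein disulfide isomerases act on the new chains. When unfolded chains accumulate, the sensors IRE1, PERK and ATF6 are activated, IRE1 splices the Xbp1 transcript into the form that encodes the active factor, and spliced XBP1 and cleaved ATF6 raise transcription of chaperone and degradation genes. Counts per gene do not separate spliced from unspliced Xbp1 transcripts.

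RNA was sequenced from sorted LSK cells (Lin-Sca1+c-kit+, the stem cell fraction) and sorted myeloid progenitors or LK cells (Lin-c-kit+). It was also sequenced from cultured cells that the study names mesenchymal stromal cells (MSC), which had macrophage genes too, as given below. All came from mouse bone marrow labelled C57BL/6. The LSK and LK cells came from irradiated C57BL/6 recipients of marrow from Mx1Cre; Jak2VF/+ mice, in which an interferon-responsive Cre, induced with pI-pC, switches on 1 mutant Jak2 knock-in allele, so the PBS and IL-1β groups both carry it. These mice received PBS (n = 3 libraries for each population) or IL-1β (n = 2) by intraperitoneal injection, 0.5 μg per dose by the study's text and 3 doses per week, for 16 weeks. The MSC were grown from C57BL/6 marrow for 21 days and given PBS or 5 ng/ml IL-1β for 72 h (2 libraries each). The cells of the Jak2VF/+ mice thus saw the cytokine in the animal for weeks, and the MSC, which carry no Jak2 mutation by the labels, in the dish for days. Nothing in the labels says that libraries of a group came from separate animals or cultures, so p-values measure the spread between these libraries, which may be in part technical.

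The counted read pairs were 12172400, 13241793 and 16271408 in the LSK PBS libraries, and 8641124 and 4393233 in the treated ones. For LK cells, PBS libraries held 12804883, 18544346 and 13992210 pairs, and treated ones 7652483 and 6367352. In both populations the deepest treated library thus held fewer pairs than the shallowest untreated one, and depth and treatment cannot be told apart there. The MSC libraries held 5834909 and 13155033 pairs with PBS (replicates 2 and 3), and 30871055 and 11681794 with IL-1β (replicates 1 and 2). LSK PBS replicate 2 stood apart from the other LSK PBS libraries. It had counts for 15360 genes against 18056 and 18023, and was more than 2-fold from replicates 1 and 3 at 3285 and 3369 tested genes, against 1052 between replicates 1 and 3. The count of calls in LSK cells is therefore also given without it. The LSK IL-1β libraries had counts for 15423 and 14857 genes, and were more than 2-fold apart at 2362 tested genes. LK PBS replicate 3 was more than 2-fold from replicates 1 and 2 at 1260 and 1349, against 540 between those.

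Levels are given as normalized read counts (CPM) with TMM factors over all 14 libraries, and between genes as CPM per kb of exon length. By CPM per kb, Hspa5 was the most abundant of the 10 genes in each of the 6 groups and Hsp90b1 was next. In LK cells with PBS, for example, Hspa5 was at 196 ± 42.2 CPM per kb (SD, n = 3) and Hsp90b1 at 145 ± 17.2. Dnajb9 was the least abundant in 5 of the 6 groups, at 7.24 ± 0.532 CPM per kb in LK cells with PBS, and Herpud1 in MSC with PBS. Across the groups, 9 of the 10 genes had their highest mean CPM in IL-1β-treated LK cells. The exception was Dnajb9, which was highest in MSC. For Hspa5, Hsp90b1, Pdia6, Sdf2l1 and Creld2 the next group was LSK cells with IL-1β, and its libraries overlapped those of LK cells with IL-1β. Levels in MSC against sorted cells are a description only, since genotype, culture and exposure differ together.

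**Figure D1:**
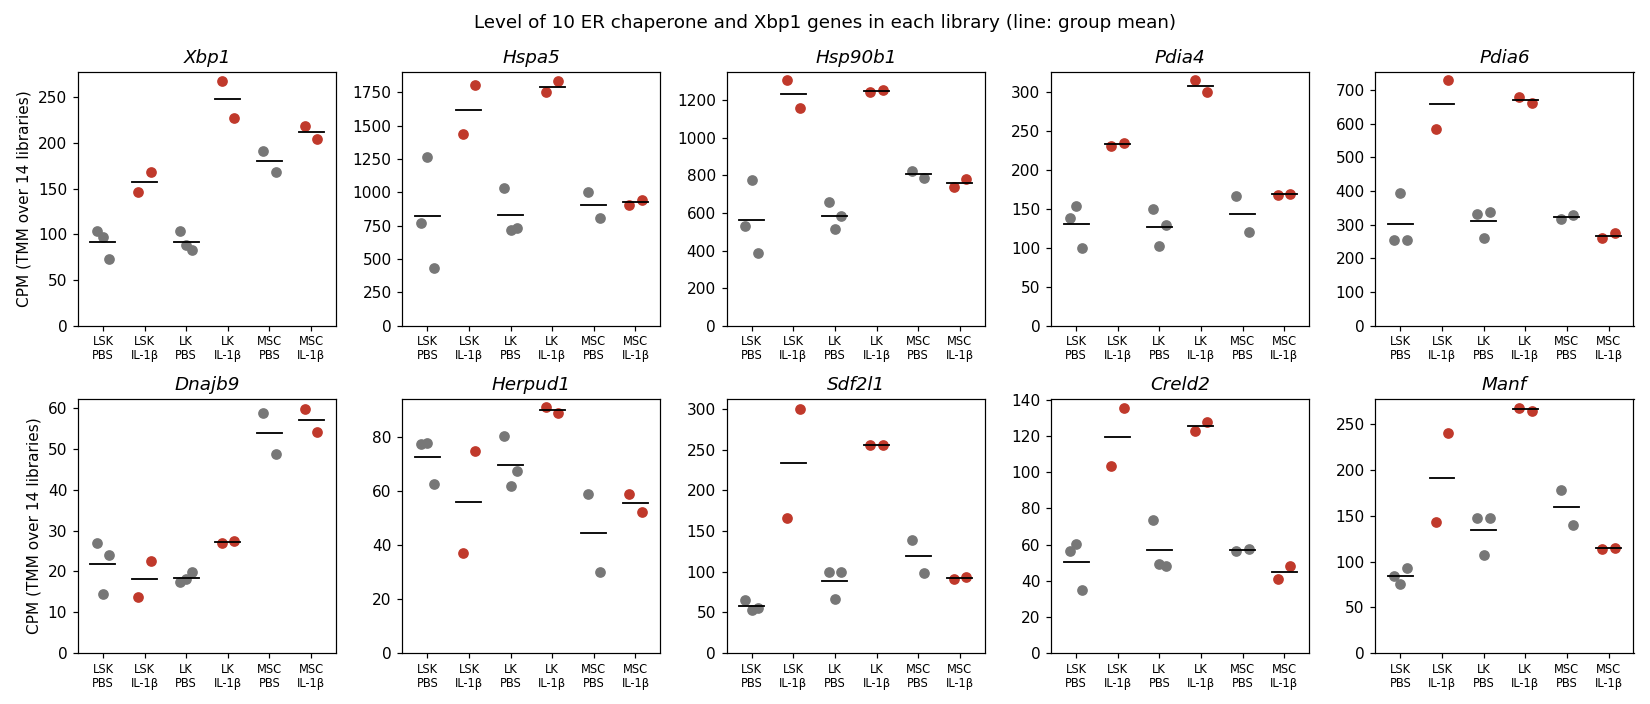
CPM of each of the 10 genes (linear axis from 0, TMM over 14 libraries) in every library of the 6 groups; points are libraries, grey with PBS and red with IL-1β, and lines are group means. For 8 genes both LSK IL-1β libraries lie above the 3 LSK PBS libraries, and for all 10 genes both LK IL-1β libraries lie above the 3 LK PBS libraries.

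In LK cells, IL-1β treatment was accompanied by higher expression of nearly the whole group. A gene was called when edgeR's quasi-likelihood test gave a Benjamini-Hochberg adjusted p under 0.05 over all genes tested and the log2 fold change was above 0.5 in size. By this rule 9 of the 10 genes were called higher and 0 lower, where 6.77% of the 12835 genes tested were called higher and 2.57% lower. For all 10 genes both IL-1β libraries lay above all 3 PBS libraries, a pattern seen in 19% of genes tested. Their median log2 fold change was 1.19, against -0.03 over all genes tested. Herpud1 was the gene not called. Without IL-1β replicate 1, the number called fell from 9 to 2 (Xbp1 and Hsp90b1) while 66 genes were called in all, and without IL-1β replicate 2 it was 6 among 331. In these fits the remaining IL-1β library is assumed to vary like the PBS libraries. Without PBS replicates 1, 2 or 3, the group had 9, 8 and 9 genes called, among 627, 603 and 2409 genes, against 1199 with all libraries.

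In LSK cells, 8 of the 10 genes had higher values in both IL-1β libraries than in every PBS library, against 18.3% of the 13132 genes tested. Only Sdf2l1 was called higher and 0 genes were called lower, where 0.32% of genes tested were called higher and 0.312% lower. Those 8 genes, all but Dnajb9 and Herpud1, also had an unadjusted p under 0.05 with a log2 fold change above 0.5, against 8.01% of genes tested. The median log2 fold change of the 10 genes was 1.05, against -0.06 over all genes. DESeq2 and a fit of all 10 sorted-cell libraries together each called 7 of the 10 genes in LSK cells. In both these were Xbp1, Hsp90b1, Pdia4, Pdia6, Sdf2l1, Creld2 and Manf. The fit with no filter on low counts called 6, Hspa5 among them, and limma-voom called 1. Those fits called 905 of 13132, 1228 of 13839, 869 of 21196 and 21 of 13132 genes in all. The spread was larger here than in LK cells, with a biological coefficient of variation of 0.377 against 0.183. The fit of all 10 sorted-cell libraries shares 1 spread over both populations (0.299). It thus takes a smaller spread for LSK cells than these libraries show alone. Without PBS replicate 2, edgeR called Hsp90b1, Pdia6 and Sdf2l1, with fitted changes of the 10 genes from -0.50 for Dnajb9 to 1.97 for Sdf2l1, and the genes called in all rose from 83 to 480. Without PBS replicate 3 it called 161 genes, Sdf2l1 among them. Without IL-1β replicate 1 or replicate 2, edgeR called 0 of the 10 genes, among 6 and 3 genes called in all. At an unadjusted p under 0.05 there were 7 without replicate 1, all higher, where 2366 of 14049 genes tested were at that level, and 8 without replicate 2, of which Herpud1 was lower (log2 fold change -0.96) and the others higher, where 1163 of 14206 genes were.

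In MSC, the same genes did not follow this pattern. edgeR called 0 of the 10, where 11.4% of the 13239 genes tested were called in either direction. At an unadjusted p under 0.05 there were 3 genes, Pdia6, Creld2 and Manf, all lower with IL-1β, where 3968 of the 13239 genes tested were at that level in either direction, and DESeq2 called 1 (Manf) and limma-voom 0. Both IL-1β libraries lay below both PBS libraries for 5 genes (Hsp90b1, Pdia6, Sdf2l1, Creld2 and Manf), against 26.2% of genes tested, and above them for Xbp1 and Pdia4, against 33.3%. The median log2 fold change of the 10 genes was -0.06, and that of all genes tested was 0.00. The PBS libraries differed from each other: without PBS replicate 2 edgeR called Herpud1 higher (log2 fold change 0.89) among 3819 genes, and without PBS replicate 3 it called Manf and Sdf2l1 lower (-0.69 and -0.65) among 2794. Without IL-1β replicates 1 and 2 it called 38 and 82 genes, against 1515 with all libraries, and 0 of the 10, of which 0 and 1 had an unadjusted p under 0.05.

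**Figure D2:**
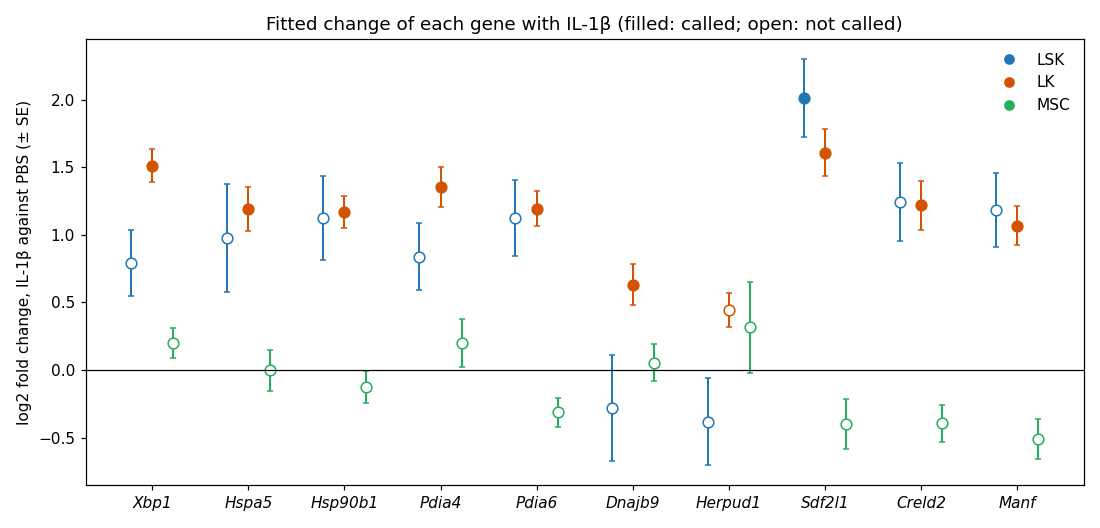
Fitted log2 fold change of each gene with IL-1β against PBS in LSK cells, LK cells and MSC (vertical axis, log2 units; bars are ± 1 SE from edgeR; filled points were called). In LK cells the values run from 0.44 for Herpud1 to 1.61 for Sdf2l1, and in MSC from -0.51 for Manf to 0.32 for Herpud1.

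Xbp1 (ENSMUSG00000020484, chr11:5520659-5525893 in GRCm38) encodes the transcription factor that IRE1 activates by splicing. In LK cells it was at 104, 88.4 and 82.7 CPM with PBS, and at 268 and 228 CPM with IL-1β. LSK cells had 103, 97.6 and 72.8 CPM with PBS, and 147 and 169 CPM with IL-1β. In MSC it was at 191 and 169 CPM with PBS, and at 219 and 205 CPM with IL-1β. Treated and untreated libraries were apart in all 3 populations, furthest in LK cells. The log2 fold change was 1.51 (SE 0.12, edgeR adjusted p = 0.000769) in LK cells, a 2.85-fold higher level that was called in each of 11 alternative fits. It was 0.79 (SE 0.24, edgeR adjusted p = 0.150) in LSK cells and 0.20 (SE 0.11, edgeR adjusted p = 0.300) in MSC. In LSK cells 2 of 11 alternative fits called Xbp1. They were DESeq2 (0.82, adjusted p = 0.0466) and the fit of all 10 sorted-cell libraries (0.75, edgeR adjusted p = 0.0354). Ordered by mean, the groups ran from LK cells with IL-1β (248 ± 28.5 CPM, SD, n = 2) through MSC with IL-1β, MSC with PBS (179.8 ± 15.6, n = 2) and LSK cells with IL-1β (158 ± 15.4, n = 2) to LK and LSK cells with PBS. Libraries of neighbouring groups were apart except for the last pair, LK and LSK cells with PBS, at 91.8 ± 11.2 and 91.2 ± 16.2 CPM (SD, n = 3 each). MSC with PBS and LSK cells with IL-1β were barely apart, at 168.799 and 168.656 CPM in their nearest libraries. Without TMM factors these 2 groups overlapped and the order of their means was reversed.

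Hspa5 (ENSMUSG00000026864, chr2:34771970-34777547) encodes BiP, the chaperone that binds unfolded chains and holds the stress sensors inactive. With PBS it was at 1035, 717 and 734 CPM in LK cells, and with IL-1β at 1752 and 1833 CPM. In LSK cells it was at 770.3, 1268 and 433 CPM with PBS, and at 1434 and 1803 CPM with IL-1β. The LSK PBS libraries were spread almost 3-fold, from replicate 3 at the bottom to replicate 2, which came close to the lower IL-1β library. The log2 fold change was 1.19 in LK cells (SE 0.16, edgeR adjusted p = 0.00548) and 0.98 in LSK cells (SE 0.40, edgeR adjusted p = 0.238). Without LSK PBS replicate 3 the LSK value was 0.68 (edgeR adjusted p = 0.403). Without LSK PBS replicate 2 the LSK value was 1.44 (edgeR adjusted p = 0.0586, range over the alternatives 0.0420 to 0.711). Hspa5 was not called in LK cells in the joint fit (edgeR adjusted p = 0.0834), or without IL-1β replicate 1 (0.0915) or 2 (0.0541), and the other 8 of 11 alternative fits called it. MSC had 1003 and 805 CPM with PBS, and 908 and 944 CPM with IL-1β, so the treated libraries lay between the untreated ones (log2 fold change 0.00, SE 0.15).

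Hsp90b1 (ENSMUSG00000020048, chr10:86690209-86705509) encodes Grp94, the Hsp90-type chaperone of the ER lumen, which folds integrins and Toll-like receptors. LK cells had 655, 517 and 585 CPM with PBS, and 1243 and 1252 CPM with IL-1β. LSK cells had 529, 774 and 387 CPM with PBS, and 1303 and 1156 CPM with IL-1β. Both treated groups were above all untreated libraries and close to each other. The log2 fold change was 1.17 in LK cells (SE 0.12, edgeR adjusted p = 0.00175) and 1.13 in LSK cells (SE 0.31, edgeR adjusted p = 0.121). In LK cells it was called in each of 11 alternative fits. In MSC the PBS libraries were at 825 and 787 CPM and the IL-1β libraries at 737 and 778 CPM, apart by a small margin and lower with treatment (log2 fold change -0.12, SE 0.12, edgeR adjusted p = 0.521).

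Dnajb9 and Sdf2l1 encode partners of BiP. Dnajb9 (ENSMUSG00000014905, chr12:44205559-44210326) encodes ERdj4, a J-domain cochaperone that also returns IRE1 to its inactive state. It was at 17.3, 18.1 and 19.9 CPM in LK cells with PBS, and at 26.97 and 27.4 CPM with IL-1β (log2 fold change 0.63, SE 0.15, edgeR adjusted p = 0.0356). The LSK libraries were at 27.04, 14.4 and 24.1 CPM with PBS, and at 13.7 and 22.6 CPM with IL-1β (log2 fold change -0.28, SE 0.39). The LK call was lost with limma-voom (adjusted p = 0.0517), with the joint fit (edgeR adjusted p = 0.415) and without any of 4 single libraries (PBS replicates 1 and 2 and both IL-1β libraries), with edgeR adjusted p from 0.0893 to 0.283 without those libraries and from 0.00577 to 0.415 over the alternatives. The LSK groups overlapped, and the LSK value was 0.04 without IL-1β replicate 1. In MSC Dnajb9 was at 58.9 and 48.7 CPM with PBS, and at 59.9 and 54.2 CPM with IL-1β, above every sorted library, and the treatments overlapped.

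Sdf2l1 (ENSMUSG00000022769, chr16:17130138-17132383) encodes a small ER protein that works with BiP and its J-domain partners. Of the 10 genes it had the largest fitted change in LSK and in LK cells. LSK cells had 64.7, 53.2 and 55.3 CPM with PBS, and 166 and 299.9 CPM with IL-1β. The log2 fold change was 2.01 (SE 0.29, edgeR adjusted p = 0.0207), a 4.03-fold higher level. The 6 alternative fits that use every LSK library also called it, as did the fits without each PBS library, but those without an IL-1β library did not (edgeR adjusted p = 0.0577 without replicate 1 and 0.181 without replicate 2, range over the alternatives 3.16e-09 to 0.181). In LK cells it was at 99.5, 66.7 and 99.4 CPM with PBS, and at 256 and 255 CPM with IL-1β (log2 fold change 1.61, SE 0.17, edgeR adjusted p = 0.00329). In MSC the order was the opposite, with 139 and 98.5 CPM with PBS, and 91.1 and 92.9 CPM with IL-1β (log2 fold change -0.40, SE 0.18, edgeR adjusted p = 0.213). Without MSC PBS replicate 2 the value was -0.11, and without replicate 3 it was -0.65.

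Pdia4 (ENSMUSG00000025823, chr6:47796141-47813430) and Pdia6 (ENSMUSG00000020571, chr12:17266545-17284770) encode protein disulfide isomerases, which form and reshuffle disulfide bonds. Pdia4 was at 149.8, 103 and 129 CPM in LK cells with PBS, and at 315 and 301 CPM with IL-1β (log2 fold change 1.35, SE 0.15, edgeR adjusted p = 0.00308). In LSK cells it was at 138, 154 and 99.9 CPM with PBS, and at 231 and 235 CPM with IL-1β (log2 fold change 0.84, SE 0.25, edgeR adjusted p = 0.141). In MSC it was at 166 and 120.3 CPM with PBS, and at 168 and 169 CPM with IL-1β (log2 fold change 0.20, SE 0.18). The IL-1β libraries of Pdia4 were close to each other in each population, and in MSC the upper PBS library almost reached them. Pdia6 was at 331, 259.6 and 338 CPM in LK cells with PBS, and at 680.2 and 663 CPM with IL-1β (log2 fold change 1.19, SE 0.13, edgeR adjusted p = 0.00211). The LSK libraries were at 254, 394 and 256 CPM with PBS, and at 586 and 730.0 CPM with IL-1β (log2 fold change 1.12, SE 0.28, edgeR adjusted p = 0.0985). In MSC it was lower with IL-1β, at 259.7 and 275 CPM against 318 and 329.7 CPM (log2 fold change -0.31, SE 0.11, unadjusted p = 0.0282, edgeR adjusted p = 0.119).

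Creld2 (ENSMUSG00000023272, chr15:88819646-88826683) encodes an ER-resident protein with disulfide isomerase activity, induced with the chaperones. In LK cells it was at 73.4, 49.2 and 48.2 CPM with PBS, and at 123 and 128 CPM with IL-1β (log2 fold change 1.22, SE 0.18, edgeR adjusted p = 0.00784). LSK cells had 56.3, 60.4 and 34.7 CPM with PBS, and 103 and 135 CPM with IL-1β (log2 fold change 1.24, SE 0.29, edgeR adjusted p = 0.0843). The fitted changes were of like size in both populations, with a larger error in LSK cells. MSC had 56.4 and 57.8 CPM with PBS, and 41.2 and 48.1 CPM with IL-1β (log2 fold change -0.39, SE 0.14, unadjusted p = 0.0282, edgeR adjusted p = 0.119).

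Manf (ENSMUSG00000032575, chr9:106838312-106891979) encodes a neurotrophic factor of the ER that stabilizes BiP's hold on its clients and is secreted under stress. Its extent in the count tables overlaps Rbm15b on the same strand, and read pairs on both genes are not counted by the default of featureCounts. In LK cells it was at 148, 107 and 147 CPM with PBS, and at 268 and 265 CPM with IL-1β (log2 fold change 1.07, SE 0.15, edgeR adjusted p = 0.00531). In LSK cells it was at 84.0, 75.0 and 93.0 CPM with PBS, and at 143 and 240.2 CPM with IL-1β (log2 fold change 1.18, SE 0.28, edgeR adjusted p = 0.0843). In MSC it was at 178 and 140.1 CPM with PBS, and at 114 and 115 CPM with IL-1β. The MSC log2 fold change was -0.30 without PBS replicate 2 and -0.69 without PBS replicate 3. The treated MSC libraries were below the untreated ones, with a log2 fold change of -0.51 (SE 0.15, unadjusted p = 0.0149, edgeR adjusted p = 0.0817), the lowest of the 10 genes. DESeq2 called this difference (adjusted p = 0.0372, range over the alternatives 3.69e-05 to 0.568).

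Herpud1 (ENSMUSG00000031770, chr8:94386438-94395377) encodes Herp, a membrane protein of the complex that sends misfolded proteins out of the ER for degradation. In LK cells it was at 80.3, 61.7 and 67.2 CPM with PBS, and at 90.9 and 88.9 CPM with IL-1β. The libraries were apart, but the log2 fold change of 0.44 (SE 0.13, edgeR adjusted p = 0.0643) was not called, since it missed both thresholds. Of 11 alternative fits 1, that without PBS replicate 1, called it (log2 fold change 0.56, edgeR adjusted p = 0.0459, range over the alternatives 0.0132 to 0.557). The LSK libraries were at 77.5, 77.5 and 62.6 CPM with PBS, and at 37.0 and 74.9 CPM with IL-1β. The 2 treated LSK libraries were thus 1 below and 1 among the untreated ones (log2 fold change -0.38, SE 0.32), and the value was 0.05 without IL-1β replicate 1. MSC had 58.9 and 29.8 CPM with PBS, and 58.8 and 52.2 CPM with IL-1β, overlapping groups.

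The difference of the responses of the sorted populations was tested with an interaction term over their 10 libraries, with an adjusted p under 0.05 as the call. edgeR called 0 of the 10 genes, as did DESeq2 and limma-voom (0 each), where edgeR called 0.0289% of 13839 genes tested. Without single libraries edgeR also called 0 of the 10, among 0 to 336 genes (4 with all libraries, 336 without LSK PBS replicate 2, 199 without LSK IL-1β replicate 1). At an unadjusted p under 0.05 there were 3, each with a lower response in LSK cells, where 1967 of all genes tested were at that level in either direction. The difference of log2 fold changes was -0.76 for Xbp1 (SE 0.27, unadjusted p = 0.0171, edgeR adjusted p = 0.263), -0.86 for Herpud1 (SE 0.37, unadjusted p = 0.0383, edgeR adjusted p = 0.327) and -0.96 for Dnajb9 (SE 0.44, unadjusted p = 0.0499, edgeR adjusted p = 0.351). Without LSK IL-1β replicate 1 Herpud1 was at -0.38 and Dnajb9 at -0.58, and without replicate 2 at -1.46 and -1.37. Xbp1 ran from -0.89 to -0.56 over the single omissions. A p that misses the threshold does not show that the responses were alike, and the calls in LK cells and their lack in LSK cells are therefore not shown to differ.

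Under PBS, LSK cells were compared with LK cells. edgeR called 1 of the 10, Manf, where 31.2% of the 12737 genes tested were called in either direction. The libraries of the 2 populations were apart for 2 genes, Manf and Sdf2l1, both lower in LSK cells, against 51.6% of genes tested. The log2 fold change of LSK against LK cells was -0.58 for Manf (SE 0.18, edgeR adjusted p = 0.0379) and -0.53 for Sdf2l1 (SE 0.20, edgeR adjusted p = 0.0780). The other 8 ranged from -0.08 for Creld2 to 0.34 for Dnajb9. Over single omissions Hspa5 ran from -0.36 to 0.32, Hsp90b1 from -0.25 to 0.18 and Creld2 from -0.24 to 0.13. Xbp1, Pdia4 and Pdia6 also changed sign, and Herpud1 and Dnajb9 did not. Manf was not called with upper-quartile factors (edgeR adjusted p = 0.0512), in the joint fit (0.0646), or without LSK PBS replicate 1 (0.0669), LK PBS replicate 1 (0.145) or LK PBS replicate 3 (0.121), and its adjusted p over the alternatives ran from 0.0111 to 0.145. DESeq2 called Sdf2l1 too (adjusted p = 0.0420), as did edgeR without LK PBS replicate 2 (0.0334), and without LSK PBS replicate 2 edgeR called Dnajb9 higher in LSK cells (0.0288). The count of all genes called, 3980 with all libraries, was 2145 without LK PBS replicate 1 and 2314 without LK PBS replicate 2.

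After the values in LK cells and MSC had been seen, the difference of these 2 responses was also tested, over 9 libraries. The exposures differ in length, route, genotype and cell type together, and the LK libraries are those of the comparison above. The fitted response was lower in MSC for all 10 genes and 8 were called, where 3.75% of the 14810 genes tested were called lower. The difference of log2 fold changes was furthest for Sdf2l1, at -1.98 (SE 0.28, edgeR adjusted p = 0.00357), and for Creld2, Manf and Pdia6 it was -1.59, -1.55 and -1.48. For Xbp1 it was -1.28 (SE 0.19, edgeR adjusted p = 0.00391). Dnajb9 at -0.55 (edgeR adjusted p = 0.132) and Herpud1 at -0.10 (edgeR adjusted p = 0.934) were not called. The Herpud1 value was 0.0813 with limma-voom, 0.46 without MSC PBS replicate 2 and -0.54 without MSC PBS replicate 3. Hspa5 and Pdia4 were not called without LK IL-1β replicate 1, LK IL-1β replicate 2 or MSC IL-1β replicate 2, with 321, 527 and 347 genes called in all, against 1091 with all libraries. Without MSC IL-1β replicate 1 (301 genes) Creld2 was not called either, and without MSC PBS replicate 2 Pdia4 alone lost its call. The count of all genes called was 644 without MSC PBS replicate 3 and 1888 without LK PBS replicate 3, with the same 8 genes called in both.

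Of the sensors Ern1 (IRE1), Eif2ak3 (PERK), Atf6 and Atf6b, 0 of 4 were called by edgeR in LSK cells (0 at an unadjusted p under 0.05) and 0 of 4 in LK cells (3 at an unadjusted p under 0.05). Of all genes tested, 2431 of 13132 in LSK cells and 3176 of 12835 in LK cells were at that level. Atf6b in LK cells passed the adjustment but not the fold-change threshold. Ern1 was called in MSC, at 44.6 and 48.0 CPM with PBS and 71.5 and 64.9 CPM with IL-1β (log2 fold change 0.52, SE 0.10, edgeR adjusted p = 0.0333). It fell under the fold-change threshold with upper-quartile factors (0.46) and without PBS replicate 2 (0.499), and was not called without IL-1β replicate 1 (edgeR adjusted p = 0.398) or 2 (0.305), with a range over the alternatives from 0.000909 to 0.398.

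Of the other ER chaperones and folding enzymes, 11 of 21 tested were called higher in LK cells and 0 lower. Of all 12835 genes tested there, 6.77% were called higher and 2.57% lower. The list's median log2 fold change was 0.55, against -0.03 over all genes. The largest were Calr, which encodes the glycoprotein chaperone calreticulin (1.33, SE 0.17, edgeR adjusted p = 0.00439), Pdia5 (1.31, SE 0.28), Hyou1, a nucleotide exchange factor of BiP (1.17, SE 0.10), and P4hb, the main disulfide isomerase (1.17, SE 0.16). Calr was at 1354, 1134 and 1670.2 CPM with PBS, and at 3437 and 3176 CPM with IL-1β. Without IL-1β replicate 1 Calr and P4hb were not called (edgeR adjusted p = 0.0855 and 0.0923), and Pdia5 was called in 6 of 11 alternative fits, not in the joint fit or without PBS replicate 1 or 2 or either IL-1β library (adjusted p up to 0.229). In LSK cells edgeR called 0 of 21 (6 at an unadjusted p under 0.05, as were 2431 of 13132 genes), with a median of 0.49, and in MSC 0 of 22 (3 at an unadjusted p under 0.05), with a median of 0.08. Between LSK and LK cells under PBS, Dnajc1 was called higher in LSK cells (0.89, SE 0.22) and Dnajb11 lower (-0.51, SE 0.16). Dnajc1 was called in 9 of 12 alternative fits, not without each of the LK PBS libraries (edgeR adjusted p up to 0.0679). Dnajb11 was called in 6 of 12, not with upper-quartile factors, in the joint fit, or without LSK PBS replicates 2 and 3 or LK PBS replicates 1 and 3 (adjusted p up to 0.158).

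Of the genes of ER-associated degradation, 6 of 18 were called higher in LK cells with IL-1β, where 6.77% of the 12835 genes tested were. Edem1, Edem2 and Edem3, which mark misfolded glycoproteins for export, had log2 fold changes of 1.09, 1.05 and 1.03, and Selenos, a membrane component of the export site, had 0.74. Without IL-1β replicate 1 in LK cells Edem2, Edem3 and Selenos were not called (edgeR adjusted p = 0.115, 0.0915 and 0.137), nor was Selenos without IL-1β replicate 2 (0.0641) or in the joint fit (0.0623). Selenos was also the 1 gene of 17 called in LSK cells, where 0.32% of the 13132 genes tested were called higher. It was at 30.0, 25.4 and 23.2 CPM with PBS and 66.0 and 86.0 CPM with IL-1β (log2 fold change 1.53, SE 0.26, edgeR adjusted p = 0.0330). The call was lost with limma-voom (adjusted p = 0.0665), and by edgeR without PBS replicate 3 (adjusted p = 0.0504), IL-1β replicate 1 (0.138) or IL-1β replicate 2 (0.347), and the adjusted p over the alternatives ran from 4.68e-05 to 0.347. In MSC edgeR called 0 of 17 (2 at an unadjusted p under 0.05). Under PBS 6 of 17 were called lower in LSK than in LK cells, where 1635 of the 12737 genes tested were, among them Aup1 (-1.11), Syvn1 (-0.78) and Derl1 (-0.60). Derl1 was not called without LK PBS replicate 1 (edgeR adjusted p = 0.0631). Syvn1 was called in 7 of 12 alternative fits, not with upper-quartile factors or without LSK PBS replicates 2 and 3 or LK PBS replicates 1 and 2 (adjusted p up to 0.146).

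The translocation genes encode the channel and processing enzymes through which chains enter the ER. Of these, 5 of 16 were called higher in LK cells, where 6.77% of the 12835 genes tested were. They were led by Ssr1 (0.81), Spcs2 (0.69), Ssr3 (0.68) and Ssr2 (0.65). Without IL-1β replicate 1 these 4 were not called (edgeR adjusted p from 0.0915 to 0.166), nor were Spcs2 and Ssr3 without IL-1β replicate 2 (0.0631 and 0.0749) or Spcs2 and Ssr2 in the joint fit (0.0935 and 0.113). All 16 had positive values in LSK cells, as did 6109 of the 13132 genes tested, and edgeR called 0 of the 16 (7 at an unadjusted p under 0.05, as were 2431 of all genes). In MSC Sec61b was called lower (-0.63, SE 0.10, edgeR adjusted p = 0.0188), but not without IL-1β replicate 1 (0.320) or 2 (0.249). Under PBS, against the same 1635 of 12737 genes, 4 of 16 were called lower in LSK than in LK cells, Sec61g (-0.995), Ssr4 (-0.93), Spcs1 (-0.89) and Ssr2 (-0.88). Ssr4 was not called without LSK PBS replicate 1 or each of the LK PBS libraries (edgeR adjusted p from 0.0687 to 0.0829), nor Sec61g without LK PBS replicate 1 (0.0522).

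The genes of the PERK arm, whose factor ATF4 raises amino acid and redox genes, had values in both directions. In LK cells 1 of 7 was called higher, Ero1a, an ER oxidase (1.19, SE 0.11, edgeR adjusted p = 0.00133), and 1 lower, Sesn2 (-0.81, SE 0.21, edgeR adjusted p = 0.0453). Of the 12835 genes tested, 6.77% were called higher and 2.57% lower. Sesn2 was called in 5 of 11 alternative fits, not with limma-voom, in the joint fit, or without PBS replicates 1 and 2 or either IL-1β library (adjusted p up to 0.383, edgeR). The median over the 7 was -0.02, and both IL-1β libraries lay above all PBS libraries for 1 gene and below them for 4, against 2441 and 3778 of the 12835 genes tested. Atf4 was at 253, 265 and 257 CPM with PBS, and at 237 and 246 CPM with IL-1β in LK cells. Ddit3, the stress factor CHOP, was at 17.4, 22.1 and 14.7 CPM with PBS and at 11.8 and 11.7 CPM with IL-1β in LK cells (log2 fold change -0.54, SE 0.22, edgeR adjusted p = 0.171). It was named after its values were seen, as was Atf4 for its levels with IL-1β. In LSK cells edgeR called 0 of 7 (2 at an unadjusted p under 0.05). Both IL-1β libraries of LSK cells lay above all PBS libraries for Atf4 (110.2, 113 and 141 against 149 and 214 CPM) and Ero1a (38.9, 47.7 and 36.2 against 97.6 and 61.8 CPM), and below them for Trib3 (2.58, 14.6 and 2.73 against 0.547 and 1.99 CPM), named after its values were seen. In MSC Ero1a was called higher (0.88) and Atf3 lower (-1.32, SE 0.17, edgeR adjusted p = 0.00991), and under PBS Atf4 (-0.999) and Ero1a (-0.64) were called lower in LSK than in LK cells. In MSC neither Ero1a nor Atf3 was called without IL-1β replicate 1 (edgeR adjusted p = 0.327 and 0.205) or 2 (0.293 and 0.145), and between LSK and LK cells Ero1a was not called without LK PBS replicate 1 (0.0644) or 2 (0.0624).

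Markers of other cell types moved with the treatment in the same libraries, and in sorted bulk samples a change in the share of a cell type and a change in RNA per cell cannot be told apart. Neutrophil granule genes summed to 2180.1, 2016.5 and 2839 CPM in LSK cells with PBS, and to 9456 and 11085 CPM with IL-1β, with Mpo the most abundant in each of these libraries (1631, 1628 and 2021 against 6639.6 and 6593 CPM). In LK cells they summed to 4436, 5563 and 9428 CPM with PBS, and to 20584 and 17611 CPM with IL-1β, with Mpo at 3125, 3899 and 6597 against 11932 and 10480.3 CPM. Of 14 genes tested, edgeR called 5 higher in LSK cells and 10 in LK cells. Of all genes tested, 0.32% were called higher in LSK cells and 6.77% in LK cells.

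Mast cell, basophil and eosinophil genes summed to 109.6, 95.7 and 118 CPM in LSK cells with PBS, and to 468 and 334 CPM with IL-1β. In LK cells they summed to 545, 421 and 248 CPM with PBS, and to 3731 and 2198 CPM with IL-1β, with Prg2, the most abundant of the list over all 14 libraries, at 117, 178 and 50.2 against 1195 and 744 CPM. The genes called higher were 3 of 9 tested for LSK cells and 6 of 10 for LK cells, against 0.32% and 6.77% of all genes tested. Erythroid genes summed to 7242, 6153 and 5355 CPM in LK cells with PBS, and to 3203 and 3694 CPM with IL-1β. Of the 14, 7 were called lower, against 2.57% of all genes tested. Car2, the most abundant of the list over all 14 libraries, was at 2135, 1864 and 1381 CPM against 685 and 878 CPM. In LSK cells the erythroid sum was 995, 887 and 893 against 632 and 959 CPM, with 0 of 12 called by edgeR (2 at an unadjusted p under 0.05). Stem cell genes summed to 1854, 1470.4 and 1887 CPM in LSK cells with PBS, and to 968 and 847 CPM with IL-1β. Of the 12, 3 were called lower, against 0.312% of all genes tested. Kit, the most abundant of the list over all 14 libraries, was at 509.5, 381 and 532 CPM in LSK cells with PBS against 362 and 267.5 CPM. In LK cells the stem cell sum was 477, 496 and 648 against 521 and 442 CPM. There 1 of 11 was called higher and 1 lower, against 6.77% and 2.57% of all genes tested.

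Plasma cells, which have high Xbp1 levels, were looked for by their genes. These summed to 262.3, 152 and 262.1 CPM in LSK cells with PBS, and to 83.2 and 129 CPM with IL-1β. In LK cells they summed to 58.9, 47.8 and 70.6 CPM with PBS, and to 32.5 and 26.5 CPM with IL-1β. Ighm made up most of the LK sum with PBS, at 37.1, 33.03 and 49.96 CPM, and was at 8.18 and 6.69 CPM with IL-1β. Cd79b was at 6.54, 6.83 and 10.6 CPM with PBS and at 11.2 and 12.8 CPM with IL-1β in LK cells. In LSK cells edgeR called 0 of 7 (3 at an unadjusted p under 0.05), and in LK cells 2 of 5 were called lower while 3 of 5 had positive values. Of all genes tested in LK cells, 2.57% were called lower. Ighm, Cd79b, Mzb1, Tnfrsf17, Igkc and Jchain were named after their values were seen. Mzb1 and Tnfrsf17 were at 0 in the IL-1β libraries of LSK and LK cells and at no more than 0.151 CPM in their PBS libraries. Igkc was at 50.3, 32.3 and 60.8 CPM in LSK cells with PBS and at 23.2 and 46.5 CPM with IL-1β. In LK cells Igkc was at 5.45, 0.602 and 3.59 against 9.885 and 3.57 CPM. Jchain was at 16.7, 19.7 and 24.6 against 4.60 and 13.5 CPM in LSK cells. In LK cells Jchain was at 3.12, 0 and 0.759 against 2.07 and 0.743 CPM. The list's most abundant gene over all libraries was Sdc1, which was at 166 and 151 CPM in MSC with PBS and at 233 and 218 CPM with IL-1β and under 7 CPM in each sorted library.

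The cells labelled MSC had both mesenchymal and macrophage genes, and the macrophage sum was the larger in each MSC library. Mesenchymal genes summed to 6966 and 3870.2 CPM with PBS, and to 7694 and 7762 CPM with IL-1β. Of 13 tested, 1 was called higher, where 945 of all 13239 genes tested were. Sparc, the most abundant of the list over all 14 libraries, was at 1389 and 962 against 1397 and 1477 CPM. Macrophage genes summed to 28829 and 24689.7 CPM with PBS, and to 53220.2 and 52005 CPM with IL-1β, with 8 of 15 called higher. Lyz2, the most abundant of them over all 14 libraries, was at 8433 and 5819 against 25042 and 24888 CPM. The list did not rise as a whole: treated MSC exceeded untreated MSC in every library at 13 of the 15 genes, and fell short at 2. Cd68, among those 2 and named after its values were seen, was at 1797 and 1320 against 1274 and 1038 CPM. In LSK cells macrophage genes summed to 257 to 388 CPM and mesenchymal genes to 124 to 219.5 CPM, and in LK cells to 165 to 259 and 122 to 188 CPM, with Sparc under 3 CPM and C1qa under 2 CPM in every sorted library. What part any of these cell types, or depth, has in the levels of the 10 genes was not tested.

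The genes whose pattern over the 10 LSK and LK libraries was most like Xbp1 by Pearson correlation of log2 CPM, among 9066 genes with a mean of at least 3 log2 CPM, were Tm9sf2, Pdia4, Sema4a, Atf5 and Dnajc3. For Hspa5 they were Atp6v1h, Hyou1, Chid1, Hsp90b1 and Creld2. The libraries fall into treated and untreated groups, so no coefficient is given and no test was made.

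The promoters of the 10 genes were searched for the ER stress response element, the sequence through which ATF6 and XBP1 act on chaperone genes. The genes were chosen by name as genes of the unfolded protein response, so a share above that of all promoters does not come from these counts. Whether a match bears on the change with IL-1β was not tested. RefSeq promoter sequences of GRCm38.p6, the 250 bases before the RefSeq gene start, were found for 9 of the 10 genes; Manf was not among them. The element, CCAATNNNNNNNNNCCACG on either strand, was found in Hspa5, Hsp90b1, Pdia6 and Creld2, against 37 of 32851 promoters (0.113%). Its second form, ATTGGNCCACG, was found in Herpud1, against 10 promoters (0.0304%). The core TGACGTGG, which XBP1 binds, was in 0 of the 9 and in 0.563% of all promoters. The end CCACG, which is part of both forms, was in 7 of the 9 and in 28.3% of all promoters. Hsp90b1 had 2 elements in opposite orientations. The Hspa5 match lies inside the gene's extent in the count tables, which begins before the RefSeq start. The matches are given 5′ to 3′ on the strand of the gene, with 5 bases on each side and the fixed letters of the element in capitals:
Hspa5, chr2:34772020-34772048, + strand: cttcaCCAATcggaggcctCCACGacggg
Hsp90b1, chr10:86705633-86705661, - strand: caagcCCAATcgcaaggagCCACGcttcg
Hsp90b1, chr10:86705528-86705556, - strand: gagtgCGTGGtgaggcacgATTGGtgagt
Pdia6, chr12:17266486-17266514, + strand: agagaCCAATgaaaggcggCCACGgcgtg
Creld2, chr15:88819515-88819543, + strand: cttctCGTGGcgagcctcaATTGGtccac
Herpud1, chr8:94386372-94386392, + strand: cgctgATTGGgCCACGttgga

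Xbp1, Pdia4, Dnajb9 and Sdf2l1 had neither form in this window. A match describes letters in a window and not a bound site.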

How the data were processed

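Bulk RNA-seq counts of 14 libraries in 6 groups were used, with groups and replicate numbers taken from the sample labels. The deposited values are raw counts of read pairs per gene. Per the file headers and the submitters' processing notes, the authors trimmed reads with fastp 0.20.0, aligned them to GRCm38 with HISAT2 2.0.1 and counted them with featureCounts 2.0.2 on Ensembl 100 genes in reverse-stranded mode; the study's methods name GenomicAlignments for this step. The tables also hold gene lengths, the summed exon length (another column that the authors deposited). A further MSC library named in a header was not analysed here. Library totals ran from 4393233 to 30871055 counted pairs, and the counts of the 10 genes from 102 to 21982 per library. Gene symbols came from the annotation of the same build.

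Each comparison was fitted on its own groups by edgeR 4.0.16 under R 4.3.3 (filterByExpr, TMM, robust estimateDisp and glmQLFit, glmQLFTest), with Benjamini-Hochberg adjustment over all genes tested. The standard error is the size of the log2 fold change divided by the square root of F. CPM levels use TMM factors over 14 libraries, so ratios of printed levels differ from fitted folds by up to 0.10 on the log2 scale. Alternatives were DESeq2 1.42.0, limma-voom (limma 3.58.1), scaling by DESeq2 or by the upper quartile, no filter on low counts, a block for the replicate number, 1 fit of all sorted-cell libraries (the joint fit), plain CPM, and each library left out. Counts of alternative fits in the text leave out the block. The labels number LSK and LK libraries alike. Deviations from group means over 13839 genes correlated at r of 0.21, 0.13 and 0.47 in the PBS pairs with the same number. Between different PBS numbers r ran from -0.38 to 0.16, so the value of number 2 lay within that range. With 2 libraries in a group the deviations mirror each other, so both IL-1β pairs give the same value, 0.10. These values do not settle whether the numbers pair the libraries, and the main fits do not use the numbers.

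The 10 genes and all lists were chosen with earlier results of these data known. Besides the 10 genes, the text names from each ER list up to 4 called genes per direction and comparison, from each marker list the most abundant gene, and 5 genes most like Xbp1 and Hspa5; other genes were named after their values were seen. A gene that this rule names is not reported here. Markers at 0 and the difference between MSC and LK responses were also chosen after seeing the data. Protein sequences were not used here. Figures were drawn with matplotlib 3.10.9.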

Additional observations from a re-analysis of the deposited data

Results flagged for a closer look

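The IL-1β responses of MSC and LK cells differed in a test of the difference itself (edgeR, interaction over 9 libraries) for 8 of the 10 genes. This comparison was chosen after the values were seen. The difference of log2 fold changes, MSC minus LK, was -1.28 for Xbp1. For Hspa5 it was -1.17. For Hsp90b1 it was -1.27. For Pdia4 it was -1.13. For Pdia6 it was -1.48. For Sdf2l1 it was -1.98. For Creld2 it was -1.59. For Manf it was -1.55. Without single libraries Hspa5 was called in 5 of 9 fits, Pdia4 in 4, Creld2 in 8 and the other 5 genes in 9. Exposure, genotype and cell type differ together between these experiments, so their parts cannot be told apart.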

How the results depend on the processing

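For LSK cells with IL-1β against PBS, the count of genes called was 905 with DESeq2, 21 with limma-voom, 869 with no filter, 1228 in the joint fit and 702 with the replicate block, against 83, and of the 10 genes 7, 1, 6, 7 and 3 were called. Without single libraries the counts ran from 3 to 480 genes and from 0 to 3 of the 10. For LK cells it was 1844 with no filter, 489 in the joint fit and 2331 with the replicate block, against 1199, and without single libraries 66 to 2409 genes and 2 to 9 of the 10. The PBS and IL-1β libraries of a population share only a number: same-numbered pairs correlated at 0.13 and -0.04 in LSK cells and at -0.10 and 0.03 in LK cells, so the replicate block is given here only. Between LSK and LK cells, whose numbers may pair, the replicate block changed no call of the 10 genes under PBS. It changed none in the interaction either, but there it also joins PBS and IL-1β libraries of the same number. That fit therefore does not model a pairing of LSK with LK libraries alone. For MSC, no filter gave 2354 genes against 1515, DESeq2 called 1 of the 10, and single omissions gave 38 to 3819 genes and 0 to 2 of the 10. Upper-quartile factors split the MSC calls into 817 higher and 831 lower, against 945 and 570. No paired analysis was possible because the MSC treatments share only the number 2. For LSK against LK cells under PBS, DESeq2 called 2 of the 10, upper-quartile factors and the joint fit 0 (2 and 1 at an unadjusted p under 0.05), and single omissions gave 2145 to 4965 genes and 0 to 2 of the 10. The interaction had 332 genes with DESeq2, 1 with limma-voom and 398 with no filter, against 4, and 0 to 336 without single libraries. The difference between MSC and LK responses, chosen after seeing the data, had 1854 genes with no filter against 1091, and 301 to 1888 genes and 5 to 8 of the 10 without single libraries. Changes near 0 reversed sign. In LSK cells, single omissions moved Dnajb9 from -0.67 to 0.0430 and Herpud1 from -0.96 to 0.0459. In MSC, Hspa5 was 0.00453 with limma-voom and 0.0408 with no filter, Dnajb9 was -0.0112 with upper-quartile factors, and single omissions gave -0.16 to 0.19 for Hspa5, -0.0329 to 0.48 for Pdia4, -0.0945 to 0.22 for Dnajb9 and -0.13 to 0.89 for Herpud1. Where an omission leaves 1 library in a group, that library is assumed to vary like the other group. For the 10 genes, direction and side of the threshold held in 95 of 120 alternative values in LSK cells, 104 of 120 in LK cells and 78 of 90 in MSC, the replicate block included. For the genes picked by the naming rule from the other ER lists, which in LK cells and between LSK and LK cells are fewer than were called, it held in 8 alternative values and was lost in 4 in LSK cells, 142 and 26 in LK cells, 26 and 10 in MSC, and 134 and 22 between LSK and LK cells. The causes were not tested.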
